A study of Mus musculus with 12 samples.

Results

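The TNF superfamily was followed in heart tissue of mice with and without cardiomyocyte ADAM17, the protease that cuts membrane TNF-α loose, after saline or doxorubicin. Members were taken by name: every gene symbol that starts with Tnfsf or Tnfrsf and a number, together with Tnf, Lta, Ltb, Fas, Fasl, Cd40, Cd40lg, Cd27, Cd70, Ngfr and Relt. This gave 43 of the 53465 genes in the count table, of which 17 are ligands, 25 are receptors and 1, Tnfsf13os, is an antisense RNA. The rule used names only, though it was set with earlier results of these data known. The lymphotoxin β receptor and the ectodysplasin genes carry other symbols and were read with the wider pathway instead.

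There were 4 groups of 3 mice. A17fl/fl mice carried a floxed Adam17 gene and no Cre, and A17α-MHCKO littermates carried the same floxed gene with Cre recombinase under the α-MHC promoter, which removes exon 2 in cardiomyocytes. In each genotype 3 mice were given normal saline (NS) and the other 3 the anthracycline doxorubicin (DOX), a cancer drug that damages heart muscle. Doxorubicin was injected intraperitoneally at 5 mg/kg on days 0, 7, 14 and 21, to a cumulative 20 mg/kg. The study's methods describe male mice, 8 weeks old when injections began. Each mouse gave 1 library. The labels give the tissue as heart and the study as left ventricle, and other cell types in it keep an intact Adam17 gene. No group carried Cre without the floxed gene.

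TNF superfamily ligands are mostly membrane proteins that act as trimers, and several are shed as soluble forms. Their receptors fall into classes by what they bind inside the cell. Death domain receptors such as TNFR1 and Fas can start apoptosis or, through TRADD and RIPK1, NF-κB signaling, whereas TRAF-binding receptors such as TNFR2, Fn14 and CD40 recruit TRAF adaptors directly. Decoy and soluble receptors bind ligand without passing a signal on. In the heart, TNF-α comes from both leukocytes and injured myocytes, and Fn14, the TWEAK receptor encoded by Tnfrsf12a, is known as an injury-induced gene.

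Total counts per library lay between 15950717 and 21725076, with a median of 16413855, and levels of 1 gene across libraries are given as TMM-normalized CPM. Adam17 itself ran from 27.9 to 36.8 CPM in the 6 A17α-MHCKO libraries and from 43.6 to 70.9 CPM in the 6 A17fl/fl libraries, without overlap. The library A17fl/fl + NS replicate 1 stood apart from all others. It correlated with the rest at 0.8996 on average, where each of the other 11 reached 0.9484 to 0.9664. The sum of 10 neutrophil markers was 2435 CPM there and between 9.26 and 74.0 CPM elsewhere, 9 of the 10 being highest in it. The macrophage sum was 2696 CPM against 724 to 1126 CPM, and the fibroblast sum 4752 CPM against 1167 to 2008 CPM. Of the 10 macrophage markers 9 were highest in this library, but of the 6 fibroblast markers only 3. The cardiomyocyte sum was 15222 CPM against 24456 to 40068 CPM, and the T and NK cell sum was 3.58 CPM against 6.40 to 18.4 CPM. No marker list was at 0. Comparisons that use this library are therefore also given without it. They then rest on replicates 2 and 3 of its group, which differed from each other as well. The sum of 3 atrial markers was 1.56, 2774 and 1.44 CPM in replicates 1, 2 and 3 and between 326 and 2265 CPM in the other 9 libraries. How evenly the left ventricle was sampled was not tested. The mesothelium sum was 16.3, 115.5 and 5.58 CPM and the adipocyte sum 2.19, 83.3 and 0.752 CPM in the same replicates. In whole tissue, fewer cells of a type and less RNA per cell cannot be told apart.

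Promoter sequence is shown for a few chosen members, as the stretch just upstream of the RefSeq transcription start (GRCm38.p6, 5′ to 3′ on the strand of the gene). The Tnfrsf12a stretch, chr17:23677450-23677699 on the minus strand, is shown because this receptor gave the clearest difference with treatment, and its capitals mark the Sp1 motif GGGCGG on either strand. The Tnf stretch, chr17:35202008-35202127 on the minus strand, is shown because Tnf differed most between libraries, with its TATA box TATAAA in capitals. Tnfrsf9 (chr4:150927879-150927998, plus strand) and Ltb (chr17:35194387-35194506, plus strand) were highest in the same library as Tnf, and capitals mark NF-κB consensus matches. Tnf, Tnfsf11, Tnfsf14 and Tnfrsf23 were also highest there, and none of them held such a match in the 250 bases before the start. The other start of Tnfrsf9 held none either.
Tnfrsf12a: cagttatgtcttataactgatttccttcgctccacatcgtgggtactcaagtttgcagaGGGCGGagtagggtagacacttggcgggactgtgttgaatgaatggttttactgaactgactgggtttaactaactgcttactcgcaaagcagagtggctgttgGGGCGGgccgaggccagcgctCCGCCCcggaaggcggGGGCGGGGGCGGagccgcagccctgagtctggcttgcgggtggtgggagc
Tnf: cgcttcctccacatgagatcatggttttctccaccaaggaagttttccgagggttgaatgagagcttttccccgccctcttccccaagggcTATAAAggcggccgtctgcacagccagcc
Tnfrsf9: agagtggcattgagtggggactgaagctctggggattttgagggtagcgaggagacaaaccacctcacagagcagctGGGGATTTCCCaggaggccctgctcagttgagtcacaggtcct
Ltb: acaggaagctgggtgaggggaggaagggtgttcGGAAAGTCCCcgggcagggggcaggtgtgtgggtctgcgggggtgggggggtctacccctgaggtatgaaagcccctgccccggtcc

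A promoter stretch was at hand for 32 of the 43 members, with 36 start sites. Searching the 250 bases before each start on both strands, the Sp1 motif was found in 16 of the 36 member stretches, against 32.7% of all 32851 stretches. Tnfrsf12a held 5 of them, a number that 1.93% of all stretches reach. The TATA box was found in 6, among them Tnf, Tnfsf11 and Lta, against 12.4% of all stretches. The AP-1 motif TGANTCA was found in 6 (Fas, Tnfrsf8, Tnfrsf9, Tnfsf13, Tnfsf13b and Tnfsf14), against 6.75%. The NF-κB consensus was found in 4 (Ltb, Tnfrsf25, Tnfrsf8 and Tnfrsf9), against 7.25%, and the SRF CArG box in Tnfrsf17 alone, against 1.47%. These are matches of letters only.

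The level of each member was first compared across genes as FPKM, which divides by gene length. In the 11 libraries other than A17fl/fl + NS replicate 1, Tnfrsf12a was the highest member at 57.6 ± 23.2 FPKM (SD, n = 11). Tnfrsf1a, which encodes TNFR1, followed at 20.1 ± 1.73 FPKM and Tnfsf12, which encodes the Fn14 ligand TWEAK, at 16.99 ± 1.99 FPKM. The spread of these last 2 overlapped, and their order was not the same in every library. Tnfsf12 was the higher in A17α-MHCKO + NS replicate 1 (18.8 against 18.2 FPKM) and A17α-MHCKO + DOX replicate 1 (19.3 against 18.3 FPKM). In the rest of the 11 libraries Tnfrsf1a was the higher. Fas was at 9.70 ± 2.41 FPKM and Tnfrsf21 (DR6) at 7.58 ± 1.52 FPKM. Tnfsf10 (TRAIL) was at 5.46 ± 1.70 FPKM and Tnfrsf1b (TNFR2) at 5.08 ± 0.767 FPKM, and neighbours in this order from Fas to Tnfrsf1b lie within their combined spread. Tnfrsf14, the receptor HVEM, was at 1.61 ± 0.486 FPKM, and the other 35 members had a mean under 1 FPKM. The ligand Tnf was at 0.107 ± 0.0583 FPKM, rank 32 of 43.

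**Figure D1:**
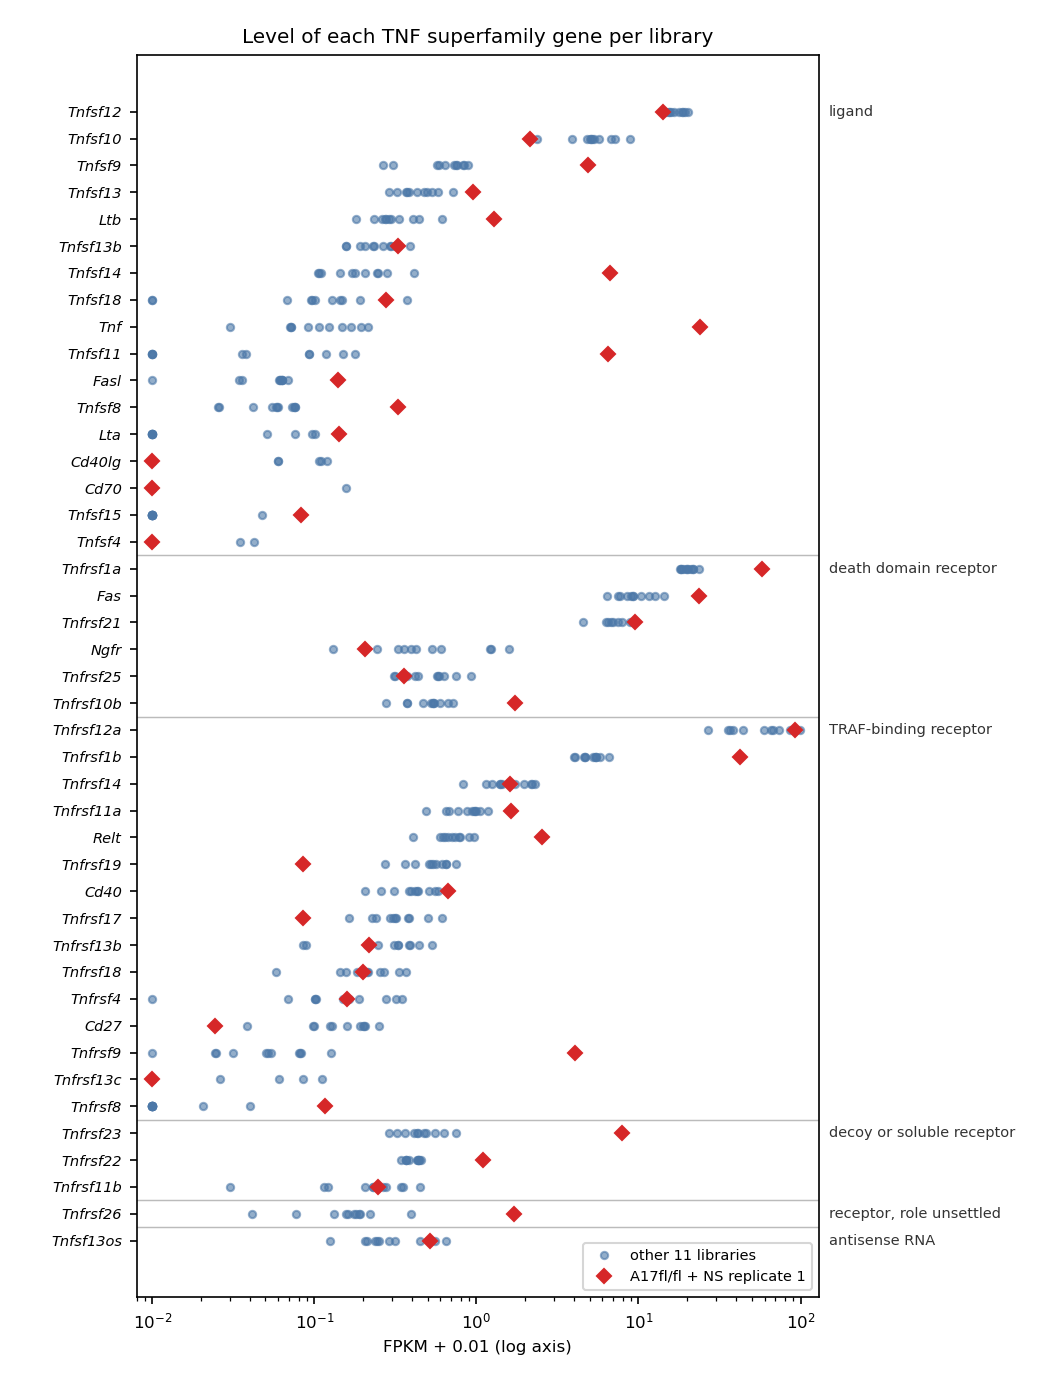
Level of each of the 43 members in every library as FPKM + 0.01 on a log axis, grouped by role. Blue points are the other 11 libraries and red diamonds A17fl/fl + NS replicate 1, which lies far to the right of the rest for Tnf, Tnfsf11, Tnfsf14 and Tnfrsf9 and to the left for Tnfrsf19.

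Low counts removed 16 members from testing, 11 ligands and 5 receptors, and left 27: 6 ligands, 20 receptors and the antisense RNA. All 6 death domain receptors and 3 decoy or soluble receptors passed. The removed members include Tnf, Tnfsf14, Tnfsf11 and Tnfrsf9, whose high counts came from a single library. In 5 members no library among the other 11 exceeded 3 counts: Lta, Cd40lg, Cd70, Tnfsf4 and Tnfrsf8. Their differences between groups were not detectable at this depth.

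A17fl/fl + NS replicate 1 held the highest CPM of the 12 libraries in 13 of the 27 tested members. Among all tested genes this was so for 26.1%. Tnf, the ligand that ADAM17 sheds, was at 68.9 CPM in this library (1194 counts). In the other saline-treated A17fl/fl mice it was at 0.479 and 0.376 CPM, in A17fl/fl + DOX at 0.566, 0.246 and 0.186 CPM, in A17α-MHCKO + NS at 0.309, 0.173 and 0.174 CPM, and in A17α-MHCKO + DOX at 0.0629, 0.650 and 0.425 CPM. The 11 low values rest on 1 to 10 counts. Saline and doxorubicin overlapped within each genotype, as did the genotypes after doxorubicin. After saline the A17fl/fl libraries all lay above the A17α-MHCKO libraries (exact two-sided permutation p = 0.1, the smallest that 3 against 3 can give), but in replicates 2 and 3 by 6 to 8 counts against 3 to 5, a difference within counting error. The library at 68.9 CPM exceeded the highest of the rest 106-fold.

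Tnfrsf1b, which encodes TNFR2, was at 157 CPM in A17fl/fl + NS replicate 1 and at 15.9 and 28.1 CPM in replicates 2 and 3. It was at 22.9, 18.3 and 21.3 CPM in A17fl/fl + DOX, at 16.4, 20.0 and 18.9 CPM in A17α-MHCKO + NS, and at 18.9, 18.6 and 21.3 CPM in A17α-MHCKO + DOX. All groups overlap once the high library is set aside. Tnfrsf1a, the gene of TNFR1, was at 206 CPM in that library and between 68.7 and 83.4 CPM in the other 11, the narrowest relative range among the 8 members above 1 FPKM. Without the high library its group means were 76.0, 77.1, 76.7 and 74.5 CPM in A17fl/fl mice (saline, then doxorubicin) and A17α-MHCKO mice (likewise).

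Several members that activated leukocytes are known to express were high in the same mouse. Tnfsf11 (RANKL, the osteoclast cytokine) was at 13.8 CPM there (239 counts) and at 0 to 0.377 CPM elsewhere (0 to 6 counts), a 36.6-fold excess over the next library. Tnfsf14 (LIGHT) was at 11.8 CPM (204 counts) against 0.180 to 0.814 CPM (3 to 13 counts). Tnfsf9 (4-1BBL) was at 5.66 CPM against 0.311 to 1.09 CPM, and its receptor Tnfrsf9 (4-1BB, a T cell costimulator) at 16.4 CPM (284 counts) against 0 to 0.497 CPM (0 to 8 counts). The decoy receptor Tnfrsf23 was at 40.2 CPM against 1.49 to 4.02 CPM. Tnfsf8 had 20 counts there and 1 to 4 elsewhere, and Ltb 73 counts against 10 to 35. The neutrophil and macrophage marker sums given above were also highest in this library, and their part in the result was not tested.

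Not all members were high in this library. Tnfrsf19 (TROY), a receptor of epithelial and neural precursors, was lowest in it at 0.577 CPM, against 1.98 to 5.92 CPM in the other 11. Cd27, a T and B cell receptor, was at 0.0577 CPM (1 count) against 0.120 to 1.03 CPM, and Tnfrsf17 (BCMA, a plasma cell receptor) also had 1 count against 2 to 8. Tnfsf12 and Tnfsf10 were lowest there too, at 21.6 and 11.5 CPM. The T and NK cell and B cell marker sums were likewise lowest in this library, at 3.58 and 2.60 CPM, and their part in the result was not tested.

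**Figure D2:**
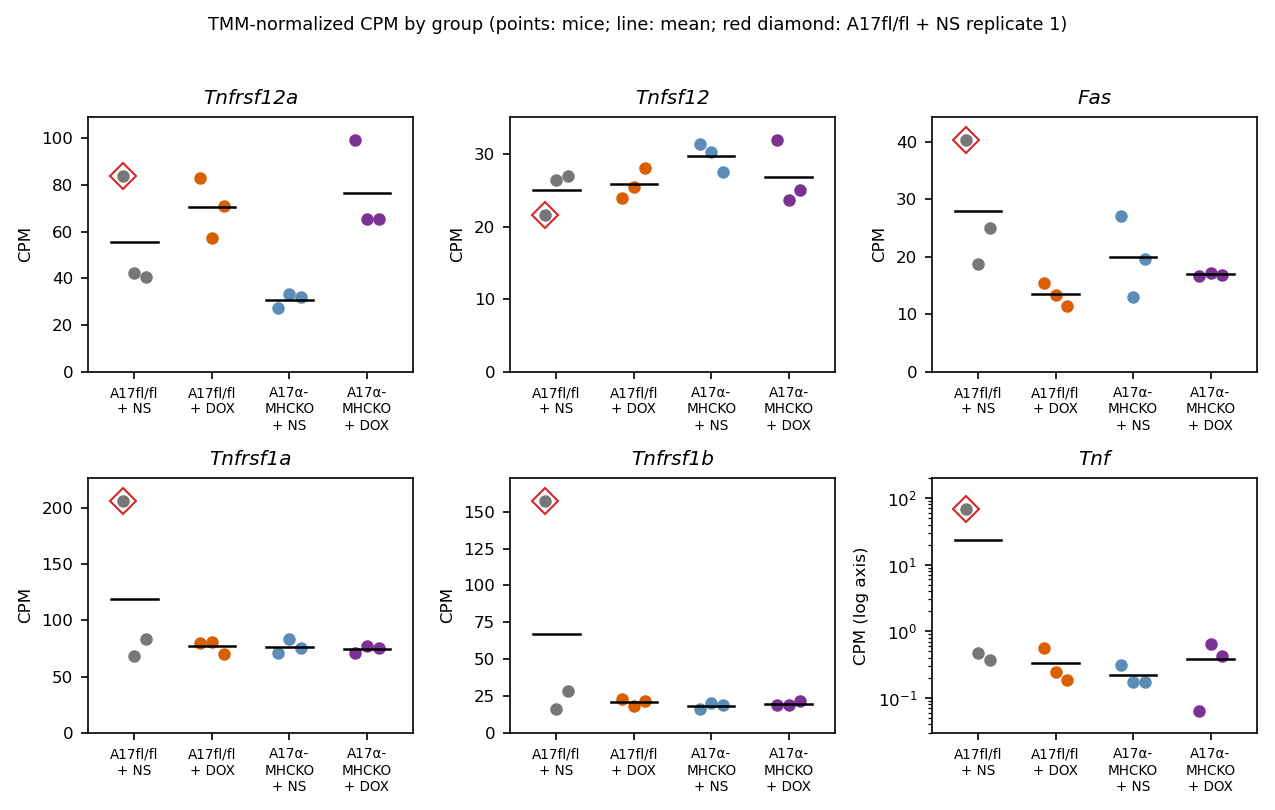
TMM-normalized CPM of 6 members by group, 1 point for each of the 3 mice and a line at the mean, with the Tnf axis on a log scale. The red diamond marks A17fl/fl + NS replicate 1, which holds the highest value for Fas, Tnfrsf1a, Tnfrsf1b and Tnf, while Tnfrsf12a is higher in both doxorubicin groups than in the remaining saline libraries.

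The first comparison asked what doxorubicin did in mice with ADAM17. The clearest member values in A17fl/fl mice were lower Fas and Tnfrsf10b, the death receptors of Fas ligand and TRAIL, and, without A17fl/fl + NS replicate 1, higher Tnfrsf12a. No member passed adjustment over all tested genes. With 12 libraries, 7 of 27 members had an unadjusted p under 0.05 in edgeR's quasi-likelihood test, against 10.7% of all tested genes. Of these Fas, Tnfrsf10b, Tnfrsf23, Tnfrsf26, Tnfrsf1b and Tnfsf9 were lower and Tnfsf10 higher. The adjusted p was under 0.05 for 0 members and 0% of all tested genes, and for 0 members also by DESeq2, by edgeR's likelihood ratio test and by limma's voom. A further rule asked for a log2 difference beyond 1 either way, together with unadjusted p below 0.05 and group mean FPKM above 1. By it 5 members were called, all lower, against 2.82% of all tested genes, 2.22% lower and 0.596% higher. Without A17fl/fl + NS replicate 1 those limits called 0 members and 1.24% of all genes. In that fit 4 of 28 members had an unadjusted p under 0.05, against 10.2% of 16406 tested genes, namely Tnfrsf12a and Cd40 (higher) and Fas and Tnfrsf10b (lower).

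Marker sums also separated these groups. The cardiomyocyte sum was 37553 to 40068 CPM in A17fl/fl + DOX against 15222 to 35532 CPM in A17fl/fl + NS, the T and NK cell sum 11.6 to 16.03 CPM against 3.58 to 9.08 CPM, and the endothelium sum 1346 to 1551 CPM against 1134 to 1314 CPM. None of the 3 overlapped with or without replicate 1, and their part in the values of Fas, Tnfrsf10b, Cd40 and Tnfrsf12a below was not tested.

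Fas was at 40.3, 18.7 and 24.9 CPM in A17fl/fl + NS and at 15.5, 13.4 and 11.4 CPM in A17fl/fl + DOX. The doxorubicin libraries all lay below the saline libraries, also with the high library set aside. The log2 fold change was -1.06 (SE 0.30, adjusted p = 0.348 by edgeR) and without replicate 1 -0.70 (SE 0.26, adjusted p = 0.398). In A17α-MHCKO mice Fas was at 27.2, 12.96 and 19.5 CPM after saline and at 16.7, 17.2 and 16.9 CPM after doxorubicin, and the groups overlapped. Over both genotypes the log2 fold change was -0.64 (SE 0.21, adjusted p = 0.360), and -0.47 (SE 0.17, adjusted p = 0.265) without replicate 1.

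Tnfrsf10b, the mouse TRAIL death receptor, was at 10.4, 4.19 and 4.95 CPM in A17fl/fl + NS and at 2.96, 3.26 and 2.30 CPM in A17fl/fl + DOX. The groups did not overlap with or without replicate 1. Its log2 fold change was -1.20 (SE 0.37, adjusted p = 0.364 by edgeR) and without replicate 1 -0.69 (SE 0.31, adjusted p = 0.485). In A17α-MHCKO mice the values were 1.79, 3.498 and 3.20 CPM after saline and 2.39, 3.51 and 3.40 CPM after doxorubicin. Its ligand Tnfsf10 was at 11.5, 13.4 and 31.4 CPM in A17fl/fl + NS, at 32.8, 50.2 and 29.2 CPM in A17fl/fl + DOX, at 23.1, 36.3 and 27.9 CPM in A17α-MHCKO + NS and at 28.4, 30.0 and 41.2 CPM in A17α-MHCKO + DOX. The pairs of groups overlap, and the log2 fold change in A17fl/fl mice was 0.99 (SE 0.36, adjusted p = 0.414) or 0.73 (SE 0.35, adjusted p = 0.513) without replicate 1.

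Cd40, the receptor through which T cells activate B cells and macrophages, was at 3.46, 1.08 and 1.504 CPM in A17fl/fl + NS and at 2.33, 3.14 and 2.36 CPM in A17fl/fl + DOX. Without replicate 1 the groups did not overlap and the log2 fold change was 1.01 (SE 0.32, adjusted p = 0.335 by edgeR). With it the value was 0.37 (SE 0.40, adjusted p = 0.760). In A17α-MHCKO mice Cd40 was at 1.73, 2.85 and 2.09 CPM after saline and at 2.20, 2.14 and 2.79 CPM after doxorubicin, with overlap. The values of Tnfrsf1b, Tnfrsf23, Tnfrsf26 and Tnfsf9 turned on replicate 1: their log2 fold changes in A17fl/fl mice were -1.69, -2.38, -1.98 and -1.73 with it and -0.08, 0.03, -0.69 and -0.25 without it.

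In A17α-MHCKO mice, Tnfrsf12a was the member that stood out after doxorubicin. It was at 27.1, 33.2 and 31.9 CPM in A17α-MHCKO + NS and at 99.3, 65.6 and 65.5 CPM in A17α-MHCKO + DOX. Every doxorubicin library lay above every saline library, and the means were 30.7 ± 3.21 and 76.8 ± 19.5 CPM (SD, n = 3). The log2 fold change was 1.32 (SE 0.28, unadjusted p = 6.573e-04, adjusted p = 0.646 by edgeR's quasi-likelihood test). Adjusted p was 0.00957 by DESeq2, 0.0324 by edgeR's likelihood ratio test and 0.0368 by voom with library weights. Of 21 alternatives these 3 alone gave an adjusted p under 0.05, and the log2 fold change over all 21 ran from 1.09 to 1.43. Without A17fl/fl + NS replicate 1, which is in neither of these groups but enters the shared estimate of spread, the SE was 0.19 and the adjusted p 0.0622. The cardiomyocyte marker sum was 24456 to 30745 CPM in A17α-MHCKO + NS and 34742 to 37270 CPM in A17α-MHCKO + DOX, the atrial sum 1254 to 2265 CPM and 326 to 918 CPM, and the fibroblast sum 1464 to 2008 CPM and 1202 to 1362 CPM. Their part in the result was not tested.

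Tnfrsf12a was the 1 member of 27 with an unadjusted p under 0.05 in A17α-MHCKO mice, against 6.42% of all tested genes. The adjusted p was under 0.05 for 0 members and 0% of genes by the quasi-likelihood test, and for 1 member by each of the other 3 tests. The share of all genes called by those 3 tests is not given here, so their calls cannot be set against it. The limits on fold, p and FPKM called 1 member, against 0.658% of all genes, and also 1, against 0.878%, without A17fl/fl + NS replicate 1. In that fit the unadjusted count was 2 of 28, against 11.5% of all genes. The added member was Tnfrsf25 (DR3, a T cell death domain receptor), at 2.22, 2.55 and 3.14 CPM after saline and 1.38, 1.17 and 2.13 CPM after doxorubicin, with a log2 fold change of -0.75 (SE 0.34, adjusted p = 0.435 by edgeR).

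**Figure D3:**
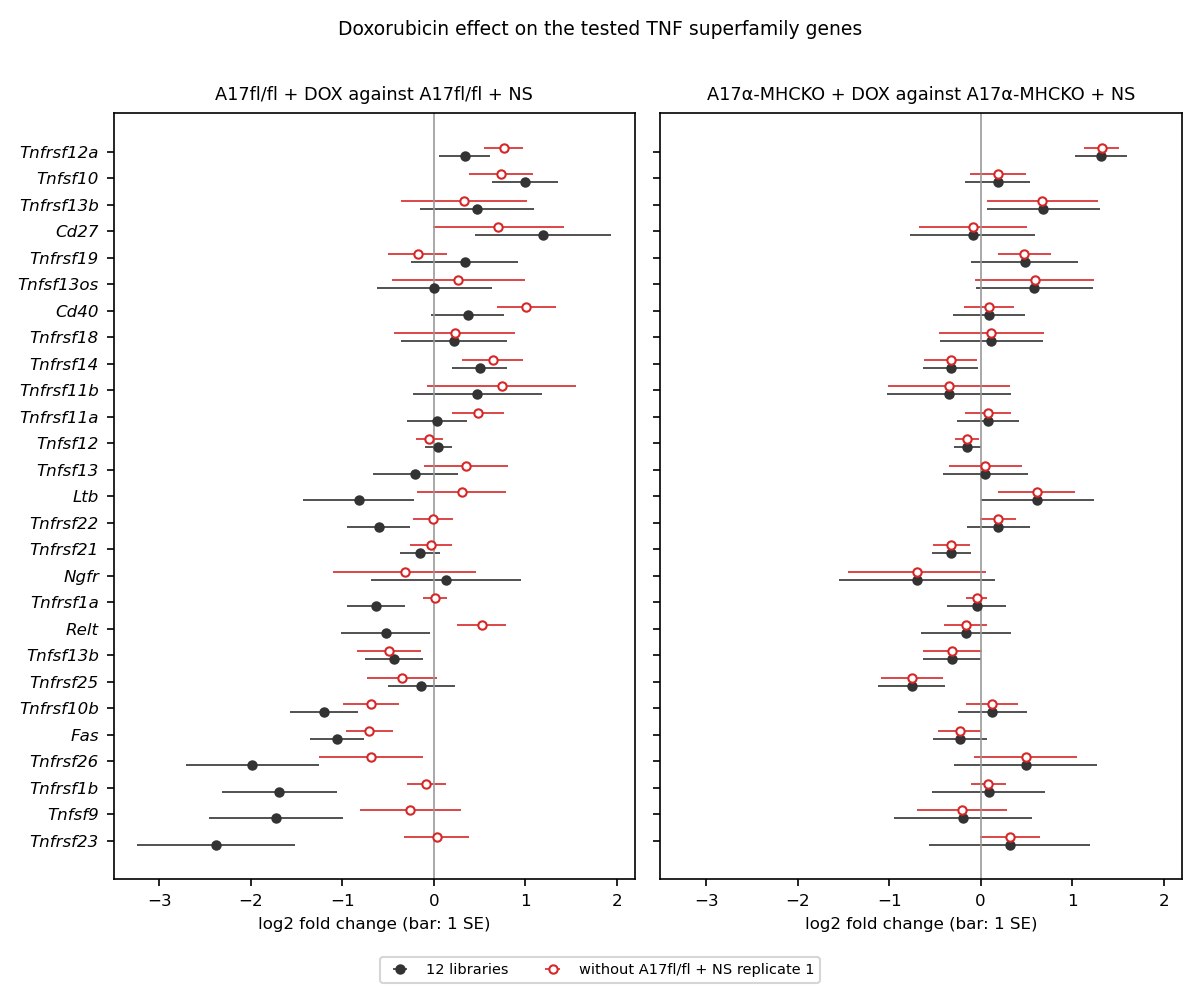
log2 fold change with doxorubicin of the 27 tested members in A17fl/fl mice (left) and A17α-MHCKO mice (right), with bars of 1 SE, in the fit of 12 libraries (filled) and without A17fl/fl + NS replicate 1 (open). Tnfrsf12a lies at 1.32 on the right, and the negative values of Tnfrsf23, Tnfrsf1b and Tnfsf9 on the left move toward 0 in the open points.

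In A17fl/fl mice Tnfrsf12a was at 84.0, 42.4 and 40.4 CPM after saline and at 82.8, 57.4 and 70.9 CPM after doxorubicin. The groups overlapped through replicate 1 alone. The log2 fold change was 0.34 (SE 0.28, adjusted p = 0.681 by edgeR) with it and 0.76 (SE 0.21, unadjusted p = 0.003825, adjusted p = 0.293) without it. Over both genotypes the mean was 43.2 CPM after saline and 73.6 CPM after doxorubicin, a log2 fold change of 0.83 (SE 0.20, adjusted p = 0.261 by edgeR; exact two-sided permutation p = 0.02165, 6 mice against 6). Without replicate 1 it was 1.04 (SE 0.14, adjusted p = 0.0507; exact p = 0.002165, the smallest that 6 against 5 can give), and all 6 doxorubicin libraries lay above all 5 saline libraries. Both exact tests permuted libraries across the genotypes, not within them, and replicate 1 was set aside after its values were seen. Adjusted p in the 12 libraries was 0.0156 by DESeq2, 0.0276 by the likelihood ratio test and 0.0439 by voom. Of 20 alternatives these 3 alone gave an adjusted p under 0.05, and the highest adjusted p was 0.564.

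Its ligand Tnfsf12 showed no such pattern. TWEAK RNA was at 21.6, 26.4 and 26.9 CPM in A17fl/fl + NS, at 23.9, 25.5 and 28.1 CPM in A17fl/fl + DOX, at 31.4, 30.2 and 27.5 CPM in A17α-MHCKO + NS and at 31.9, 23.6 and 25.1 CPM in A17α-MHCKO + DOX. The treatments overlap within each genotype, while after saline the genotypes did not (log2 fold change 0.25, SE 0.15, and 0.15, SE 0.15, without A17fl/fl + NS replicate 1). The log2 fold change with doxorubicin over both genotypes was -0.05 (SE 0.10, adjusted p = 0.886 by edgeR), and -0.10 (SE 0.10, adjusted p = 0.671) without that library. Tnfsf12 and Tnfsf13 are adjacent genes near the antisense Tnfsf13os, and how fragments that overlap more than 1 of them were counted was not measured.

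Over both genotypes, 3 of 27 members had an unadjusted p under 0.05 with doxorubicin, Tnfrsf12a and Tnfsf10 higher and Fas lower, against 10.7% of all tested genes. The adjusted p was under 0.05 for 0 members and 0% of genes by edgeR's quasi-likelihood test. It was under 0.05 for 1 member, Tnfrsf12a, by DESeq2, the likelihood ratio test and voom, whose shares of all genes are not given here. Without A17fl/fl + NS replicate 1 the unadjusted count was 4 of 28, against 15% of all genes, with Tnfrsf12a, Fas, Cd40 and Tnfrsf4. Tnfrsf4 (OX40, a T cell costimulator) was tested only in that fit and rests on 0 to 11 counts per library. It was at 0.120 and 0.313 CPM in A17fl/fl + NS replicates 2 and 3, at 0.692, 0.185 and 0.621 CPM in A17fl/fl + DOX, at 0, 0.173 and 0.174 CPM in A17α-MHCKO + NS and at 0.378, 0.325 and 0.547 CPM in A17α-MHCKO + DOX. Its log2 fold change was 1.45 (SE 0.59, adjusted p = 0.293 by edgeR). The saline and doxorubicin values overlapped over both genotypes, and in A17α-MHCKO mice they did not.

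The next comparison asked what loss of ADAM17 in cardiomyocytes did in saline-treated mice. All 5 members with an unadjusted p under 0.05 were lower in A17α-MHCKO + NS: Tnfrsf26, Tnfrsf23, Tnfrsf10b, Tnfrsf12a and Tnfrsf1b. Of all tested genes 10.1% had such a p, 6.53% lower and 3.61% higher. The adjusted p was under 0.05 for 0 members and 0.0186% of genes by edgeR's quasi-likelihood test. It was under 0.05 for 1 member, Tnfrsf26, by DESeq2 and by the likelihood ratio test, and for 0 by voom. The shares of all genes called by these other tests are not given here. The limits on fold, p and FPKM called 3 members, Tnfrsf23, Tnfrsf10b and Tnfrsf1b, against 2.99% of all genes, and 0 members, against 1.55%, without A17fl/fl + NS replicate 1. Without it the unadjusted count was 4 of 28, against 10.2% of all genes: Tnfrsf26, Tnfrsf10b and Tnfrsf19 lower and Cd40 higher. The endothelium marker sum was 1387 to 1509 CPM in A17α-MHCKO + NS against 1134 to 1314 CPM in A17fl/fl + NS, without overlap, and its part in these values was not tested.

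Tnfrsf26, a receptor-like gene of unsettled role beside the decoy receptors Tnfrsf22 and Tnfrsf23, was at 9.004, 0.957 and 2.38 CPM in A17fl/fl + NS and at 0.185, 0.777 and 0.639 CPM in A17α-MHCKO + NS. The groups did not overlap, but the knockout values rest on 3 to 18 counts. The log2 fold change was -2.90 (SE 0.76, adjusted p = 0.305 by edgeR), and -1.60 (SE 0.58, adjusted p = 0.388) without replicate 1. After doxorubicin it was at 1.19, 0.923 and 0.994 CPM in A17fl/fl mice and at 0.881, 0.390 and 1.03 CPM in A17α-MHCKO mice, with overlap. Tnfrsf23 was at 40.2, 2.93 and 2.82 CPM against 1.98, 1.60 and 2.15 CPM after saline, and its log2 fold change was -3.01 (SE 0.89, adjusted p = 0.323) with replicate 1 and -0.60 (SE 0.36, adjusted p = 0.609) without it. Tnfrsf22, Tnfrsf23 and Tnfrsf26 are close paralogs, and whether fragments were shared among them was not measured, so their counts are uncertain.

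Tnfrsf10b differed by -1.20 on the log2 scale between the saline groups (SE 0.37, adjusted p = 0.336 by edgeR), and by -0.68 (SE 0.30, adjusted p = 0.477) without replicate 1, with no overlap either way. Tnfrsf12a was lower in all 3 A17α-MHCKO + NS libraries than in any A17fl/fl + NS library, with a log2 fold change of -0.86 (SE 0.28, adjusted p = 0.343), or -0.43 (SE 0.21, adjusted p = 0.503) without replicate 1. Tnfrsf19 was at 0.577, 5.92 and 4.45 CPM in A17fl/fl + NS and at 3.46, 4.02 and 1.98 CPM in A17α-MHCKO + NS. Its log2 fold change was -0.21 (SE 0.59, adjusted p = 0.942) with replicate 1, the low library, and -0.71 (SE 0.32, adjusted p = 0.485) without it. Cd40 differed by 0.15 (SE 0.40, adjusted p = 0.940) and by 0.79 (SE 0.32, adjusted p = 0.434) without replicate 1.

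After doxorubicin, no member passed the test between genotypes. An unadjusted p under 0.05 was found for 0 of 27 members by edgeR's quasi-likelihood test, against 2.7% of all tested genes, and for 0 of 28, against 5.85%, without A17fl/fl + NS replicate 1. The adjusted p was under 0.05 for 0 members and 0.00621% of genes, and for 0 members by DESeq2, the likelihood ratio test and voom. The limits on fold, p and FPKM called 0 members, against 0.205% of genes, and 0, against 0.244%, without A17fl/fl + NS replicate 1. The cardiomyocyte marker sum was 34742 to 37270 CPM in A17α-MHCKO + DOX against 37553 to 40068 CPM in A17fl/fl + DOX, and the fibroblast sum 1202 to 1362 CPM against 1394 to 1416 CPM. Neither overlapped, and their part in the values below was not tested. Group means were 70.4 and 76.8 CPM for Tnfrsf12a, 77.1 and 74.5 CPM for Tnfrsf1a, 20.8 and 19.6 CPM for Tnfrsf1b and 0.333 and 0.379 CPM for Tnf, in A17fl/fl + DOX and A17α-MHCKO + DOX. The Fas libraries of these groups did not overlap, at 15.5, 13.4 and 11.4 CPM against 16.7, 17.2 and 16.9 CPM, with a log2 fold change of 0.33 (SE 0.30, adjusted p = 0.9998 by edgeR; exact p = 0.1). Ngfr did not overlap either, at 2.08, 4.12 and 1.43 CPM against 1.13, 1.23 and 1.34 CPM, with a log2 fold change of -1.04 (SE 0.85, adjusted p = 0.9998). Nor did the low Tnfrsf11a and Relt, or Tnfrsf9, which was too low for edgeR. An exact permutation p of 0.1 is the smallest that 3 against 3 can give. The share of all tested genes without overlap was not counted, so no weight is put on these separations.

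**Figure D4:**
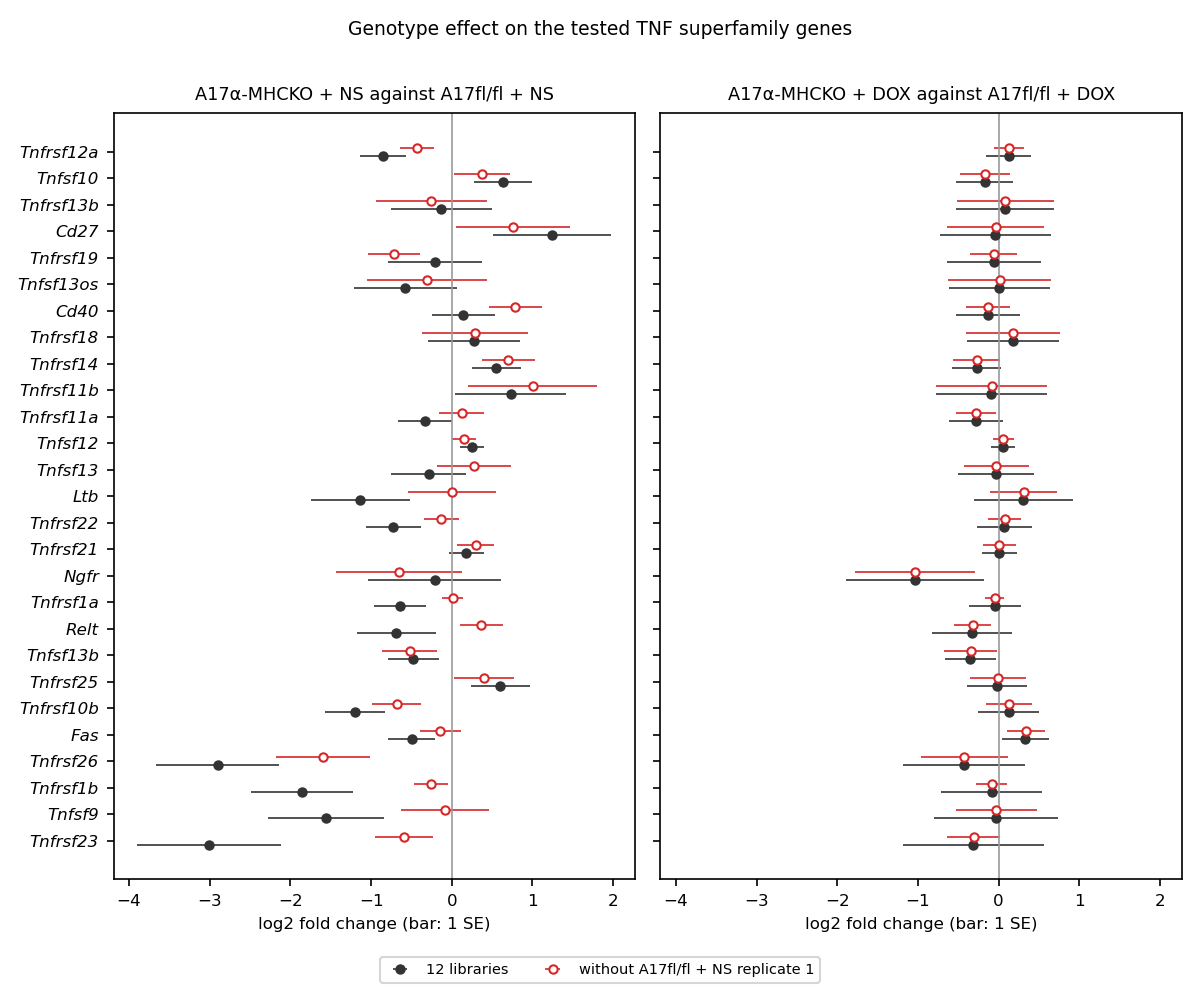
log2 fold change of A17α-MHCKO against A17fl/fl mice for the 27 tested members after saline (left) and doxorubicin (right), with bars of 1 SE, in the fit of 12 libraries (filled) and without A17fl/fl + NS replicate 1 (open). On the left Tnfrsf23 moves from -3.01 to -0.60 and Tnfrsf1b from -1.86 to -0.25, and on the right the filled points lie between -1.04 and 0.33.

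Over both treatments, 3 of 27 members had an unadjusted p under 0.05 between genotypes: Tnfrsf26, Tnfrsf23 and Tnfrsf1b, all lower in A17α-MHCKO mice. Of all tested genes 6.65% had such a p, 3.89% lower and 2.76% higher. The adjusted p was under 0.05 for 0 members and 0.0248% of genes by edgeR, and for 0 members by DESeq2, the likelihood ratio test and voom. Without replicate 1 of A17fl/fl + NS, 1 of 28 members remained, Tnfrsf26, against 10.3% of all genes, while Tnfrsf23 went from -1.66 (SE 0.62) to -0.45 (SE 0.24) and Tnfrsf1b from -0.97 (SE 0.44) to -0.17 (SE 0.14). The log2 fold change of Tnfrsf26 was -1.66 (SE 0.53, adjusted p = 0.737) in the 12 libraries and -1.01 (SE 0.40, adjusted p = 0.442; exact p = 0.01732, 6 mice against 5) without it. The genotypes overlapped.

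Whether doxorubicin acted differently in the 2 genotypes was tested as an interaction. An unadjusted p under 0.05 was found for 4 of 27 members, against 5.99% of all tested genes, and an adjusted p under 0.05 for 0 members and 0% of genes by edgeR, and for 0 members by DESeq2, the likelihood ratio test and voom. The 4 were Tnfrsf10b (1.33, SE 0.53), Tnfrsf12a (0.98, SE 0.40), Tnfrsf26 (2.48, SE 1.07) and Tnfrsf23 (2.69, SE 1.23), in log2 units, positive where the change with doxorubicin was more positive in A17α-MHCKO mice. Without replicate 1 of A17fl/fl + NS the count was 1 of 28, against 7.13% of genes, and the values of the 4 were 0.81, 0.56, 1.18 and 0.29. The remaining 1 was Tnfrsf14, at 3.06, 2.81 and 1.82 CPM in A17fl/fl + NS, 4.65, 3.45 and 2.80 CPM in A17fl/fl + DOX, 3.02, 4.19 and 4.07 CPM in A17α-MHCKO + NS and 2.39, 2.60 and 4.01 CPM in A17α-MHCKO + DOX. Its interaction was -0.97 (SE 0.44, adjusted p = 0.698) in that fit and -0.83 (SE 0.43, adjusted p = 0.844) with 12 libraries.

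The remaining members were low or even across groups. Tnfrsf21 lay between 17.1 and 34.9 CPM, Tnfrsf11a (RANK) between 3.15 and 9.64 CPM and Relt between 1.94 and 10.7 CPM, the last 2 highest in A17fl/fl + NS replicate 1. Tnfrsf22 lay between 2.62 and 3.51 CPM in the other 11 libraries and at 8.08 CPM in that library. Ngfr, the p75 neurotrophin receptor, spread over a wide range within groups, at 0.635, 5.45 and 0.877 CPM in A17fl/fl + NS and at 0.432, 1.68 and 3.89 CPM in A17α-MHCKO + NS. The B cell factor BAFF (Tnfsf13b) lay between 1.60 and 4.51 CPM and APRIL (Tnfsf13) between 0.718 and 2.31 CPM. TACI (Tnfrsf13b), which binds both, lay between 0.349 and 2.33 CPM, and the BAFF receptor Tnfrsf13c had at most 6 counts. Tnfrsf18 (GITR) lay between 0.185 and 1.40 CPM, Tnfrsf11b (osteoprotegerin) between 0.0626 and 1.17 CPM, Tnfsf18 between 0 and 0.697 CPM and Tnfsf13os between 0.180 and 1.01 CPM. Fasl had at most 5 counts, and Tnfsf15 at most 4.

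Beyond the members, 47 genes of TNF receptor signaling were listed, from other receptors (Ltbr, Edar, Eda2r) and sheddases (Adam17, Adam10) through adaptors, kinases and caspases to NF-κB and its inhibitors, and 46 of them were tested. With doxorubicin in A17fl/fl mice, 3 had an unadjusted p under 0.05 and were higher and 4 were lower, 7 of 46. Of all tested genes 10.7% had such a p, 4.11% higher and 6.58% lower. The median log2 fold change was -0.26 over the list and -0.04 over all tested genes. In A17α-MHCKO mice the counts were 0 and 0, against 6.42% of all genes, and the medians -0.05 and 0.00. Between genotypes after saline 1 was higher and 7 lower, 8 of 46 against 10.1% of all genes, 3.61% higher and 6.53% lower. After doxorubicin 0 were higher and 2 lower, against 2.7% of all genes, 1.52% higher and 1.19% lower. The list holds Adam17 itself, which the knockout lowers by design, and no genotype count of the list leaves it out. No gene of the list had an adjusted p under 0.05 in any of the 7 comparisons by edgeR. Counts that use A17fl/fl + NS replicate 1 depend on it. Without it 6 were higher and 4 lower with doxorubicin in A17fl/fl mice, against 10.2% of all genes, 4.63% higher and 5.6% lower. The median of the list was then -0.01. Between genotypes after saline 3 were higher and 2 lower, also against 10.2%, 4.58% higher and 5.65% lower. In both comparisons the larger of the list's 2 counts changed side.

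Traf3, an adaptor of several members and a negative regulator of noncanonical NF-κB signaling, was at 12.1, 10.6 and 9.65 CPM in A17fl/fl + NS and at 25.1, 20.7 and 22.3 CPM in A17fl/fl + DOX. The groups did not overlap, and the log2 fold change was 1.07 (SE 0.29, adjusted p = 0.334 by edgeR), or 1.16 (SE 0.32, adjusted p = 0.293) without replicate 1. In A17α-MHCKO mice it was at 19.1, 13.8 and 8.31 CPM after saline and at 13.2, 9.68 and 17.9 CPM after doxorubicin, with overlap. Between genotypes after doxorubicin, every A17α-MHCKO library lay below every A17fl/fl library in Traf3. The share of all tested genes without overlap was not counted, so no weight is put on this separation. The smallest adjusted p of the list in that comparison was 0.9998 by edgeR, and 0.799 without A17fl/fl + NS replicate 1. Tab1, a partner of the kinase TAK1, was at 12.7, 17.4 and 16.7 CPM in A17fl/fl + NS and at 21.4, 25.1 and 31.3 CPM in A17fl/fl + DOX, without overlap (log2 fold change 0.73, SE 0.18, adjusted p = 0.334, and 0.60, SE 0.18, adjusted p = 0.322, without replicate 1). Tnfaip3 (A20), a feedback inhibitor that NF-κB induces, was at 134 CPM in A17fl/fl + NS replicate 1, whereas the other 11 libraries held 4.22 to 9.17 CPM. Nfkbia was at 266 CPM in that library and between 45.0 and 99.7 CPM elsewhere, so both NF-κB inhibitors were highest in the library with the highest Tnf. Ltbr, the receptor of Ltb and Tnfsf14, was at 78.03 CPM there and between 37.2 and 47.6 CPM elsewhere.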

How the data were processed

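Stranded paired-end mRNA libraries of 12 left ventricles were sequenced by the study's authors, who counted fragments per gene with StringTie and tested with edgeR after TMM normalization. The submitters' processing notes name GRCm39, HISAT2, SAMtools 1.3.1 and CASAVA 1.8. The deposited table holds 24 value columns for 53465 genes: raw fragment counts, without normalization, and FPKM, which the authors computed per gene length and library total. All 24 columns were matched to a mouse by group and replicate number. The strand setting of the counting is not given in the sources used here.

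Counts were filtered by filterByExpr (16101 genes), scaled by TMM and fitted in R 4.3.3 with edgeR 4.0.16 (glmQLFit, glmQLFTest; common dispersion 0.0842), with a mean for each of 4 groups and 7 contrasts. P-values were adjusted over all tested genes by Benjamini-Hochberg, and SE is approximate (fold change over the square root of F). Alternatives used DESeq2 1.42.0, limma 3.58.1 voom with library weights, the likelihood ratio test, other normalizations and filters, a replicate block, the compared groups alone, CPM for FPKM and each library left out. Single values were compared by exact two-sided permutation of libraries, where the smallest p is 0.1 with 3 mice a group. For effects over both genotypes or both treatments the libraries were permuted together, not within genotype or treatment. The code was tested on simulated counts. Replicates are separate mice, and no 2 libraries of a group had counts within sampling noise. With a few counts per library, values under about 0.2 CPM are near the limit of detection.

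Members and lists were chosen with earlier results of these data known. Values in every library are given for Tnf, Tnfrsf1a, Tnfrsf1b, the 5 members of highest mean FPKM, members with an unadjusted p under 0.05 (at most 5 per contrast, with and without A17fl/fl + NS replicate 1), and members in which 1 library had at least 50 counts and 5 times the CPM of every other. Genes of the wider pathway named singly were chosen after their values were seen. Promoter stretches came from RefSeq (GRCm38.p6), another build than that of the files, and no gene coordinates were carried between builds.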

Additional observations from a re-analysis of the deposited data

How the results depend on the processing

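Of the recomputed values of members with an unadjusted p under 0.05, 454 kept their direction and their side of an adjusted p of 0.05, 13 passed it under an alternative and 1 reversed: Tnfrsf23 with doxorubicin in A17fl/fl mice, from -2.38 to 0.0311 (log2) without A17fl/fl + NS replicate 1 (range -2.87 to 0.0311 over libraries left out). Among all 27 tested members that omission changed the sign of 8 log2 fold changes with doxorubicin in A17fl/fl mice (Ltb, Ngfr, Relt, Tnfrsf19, Tnfrsf1a, Tnfrsf23, Tnfsf12 and Tnfsf13), 4 between genotypes after saline, 6 and 4 over both, 4 in the interaction and 0 in the comparisons that do not use the library. Members called moved as follows, in the order of the comparisons doxorubicin in A17fl/fl, doxorubicin in A17α-MHCKO, genotype after saline, genotype after doxorubicin, doxorubicin over both, genotype over both and interaction, naming only those that moved by over 1.5 times. By unadjusted p (7, 1, 5, 0, 3, 3 and 4 members), no filter on low counts gave 13, 12, 1, 5, 6 and 9 for all but doxorubicin in A17α-MHCKO. For doxorubicin in A17α-MHCKO, a filter of 10 counts in every library gave 2 and voom 3. Voom gave 2 for genotype after saline, 1 for genotype over both and 1 for the interaction, and the 10-count filter 2 for the interaction. Fits on the compared groups alone gave 3, 2 and 2 for doxorubicin in A17fl/fl, doxorubicin in A17α-MHCKO and genotype after doxorubicin. By adjusted p (0 in each), DESeq2, the likelihood ratio test and voom gave 1 for doxorubicin in A17α-MHCKO and over both, and DESeq2 and the likelihood ratio test 1 for genotype after saline. By fold, p and FPKM limits (5, 1, 3, 0, 0 and 1, without the interaction), voom gave 0, 0 and 0 for doxorubicin in A17fl/fl, genotype after saline and genotype over both, no filter 9, 8 and 3 for the same and 1 for doxorubicin over both, the compared groups alone 2 for doxorubicin in A17fl/fl, DESeq2 0 and CPM in place of FPKM 2 for genotype over both.

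Leaving out each library in turn gave 4 to 12, 1 to 2, 4 to 14, 0 to 0, 2 to 11, 1 to 9 and 1 to 11 members by unadjusted p, and 0 to 8, 1 to 1, 0 to 8, 0 to 0, 0 to 5 and 0 to 4 by the limits. By adjusted p the range was 0 to 4 for doxorubicin in A17fl/fl, 0 to 5 for genotype after saline and 0 to 0 for the rest. Both maxima arose without A17fl/fl + NS replicate 2, where Tnf, Tnfrsf1b, Fas and Tnfsf14 (adjusted p 0.0426, 0.0479, 0.0469 and 0.0360) were lower with doxorubicin and Tnf, Tnfrsf1b, Tnfrsf23, Tnfsf14 and Tnfrsf26 lower in A17α-MHCKO + NS. That fit keeps the library that stands apart, as 1 of 2 in its group. The cause of the other moves was not tested. Except without A17fl/fl + NS replicate 1, the share of all genes called under each alternative or omission is not given here.

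Replicate numbers are shared between groups, but 3 of 18 same-numbered pairs had deviations correlated above 0.1 (range -0.104 to 0.219) and 3 of 12 libraries were closest to their own number. No clear pairing of mice by number was seen, but these correlations cannot exclude a weak one. With the replicate block the unadjusted counts were 4 for doxorubicin in A17fl/fl, 2 for doxorubicin in A17α-MHCKO and 1 for genotype over both, and the limits called 3 for doxorubicin in A17fl/fl and 0 for genotype over both.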

Other observations

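Several members sit next to each other in the genome, by the gene order of the RefSeq table. Tnf and Lta are neighbours and Ltb lies on the other side of Tnf on chromosome 17. In A17fl/fl + NS replicate 1 they had 1194, 3 and 73 counts, and in the other 11 libraries at most 10, 3 and 35. Tnfrsf26, Tnfrsf22 and Tnfrsf23 are consecutive on chromosome 7, and all were highest in that library, with 156, 140 and 696 counts against at most 38, 73 and 64. Tnfsf9, Cd70 and Tnfsf14 are near each other on chromosome 17, with 98, 0 and 204 counts in that library.

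Edar, the ectodysplasin receptor and a TNF receptor family gene under another name, had log2 fold changes with doxorubicin of -1.17 over both genotypes (SE 0.43, adjusted p = 0.394 by edgeR) and -1.36 (SE 0.41, adjusted p = 0.193) without A17fl/fl + NS replicate 1. It was low throughout, at most 0.988 CPM. Traf1 was at 20.7 CPM in A17fl/fl + NS replicate 1, at 1.56 and 1.38 CPM in replicates 2 and 3, and at 2.65, 4.02 and 2.91 CPM in A17α-MHCKO + NS. Without replicate 1 its log2 fold change between the saline groups was 1.12 (SE 0.28, adjusted p = 0.188). Both genes were chosen after their values were seen.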
